A study of Mus musculus with 7 samples.

Results

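The genes described here are 10 factors that cut, cap or take apart actin filaments, bind their monomers, or, in the case of ermin, bind filaments in myelinating cells. They are Gsn, Cfl1, Cfl2, Dstn, Pfn1, Pfn2, Tmsb4x, Capg, Twf1 and Ermn, chosen by gene symbol for their known roles in actin turnover, out of 22880 genes in the deposited table. Earlier results of these data were known when they were chosen. All 10 were among the 13866 genes with at least 0.5 FPKM in at least 3 samples, the set that was tested (FPKM is a level corrected for gene length and for the number of reads in a library).

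The study asked what happens to oligodendrocytes (OLs), the myelin-forming cells of the central nervous system, when they cannot make fatty acids themselves. RNA was sequenced from optic nerves of C57Bl/6 mice at postnatal day 14 (P14), in samples of 4 control and 3 mutant mice. Control mice carried FASN lox/lox alleles, and mutants carried the same floxed alleles with olig2cre, so that both groups were homozygous for the floxed allele by their labels. The study's methods also allow for controls with 1 floxed allele (lox/wt), without saying in which experiments. Olig2 drives Cre in the OL lineage, and each sample also holds RNA of the other cells of the nerve (astrocytes, microglia, vessel and meningeal cells). By their Y-linked transcripts, controls 3 and 4 and mutant 3 were male and the others female.

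Actin filaments grow at one end and are taken apart at the other. Gelsolin and the cofilins cut or dismantle them, profilins and thymosins hold the released monomers, and capping proteins stop the ends. OL processes are rich in filaments while they reach for axons, and the wrapping that follows is known to go along with filament disassembly, for which gelsolin, cofilin and actin depolymerizing factor are the factors described. MBP, the major myelin protein on the cytoplasmic side of the membrane, is known to compete with these proteins for a membrane lipid.

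Reads assigned to genes, as recovered from the deposited normalized counts, came to 27452222 to 43462575 a library. Fasn had 169.1 to 228.3 FPKM in controls and 48.98 to 69.3 FPKM in mutants (27.5% of the control mean, log2 fold change -1.86, adjusted p = 0.00312 by limma-trend). The labels of both groups therefore matched the targeted gene. Some libraries stood apart. Mutant 2 had a summed level of 119 FPKM over 11 skeletal muscle markers, against 4.6 to 5.73 FPKM in controls and 6.67 and 9.78 FPKM in the other mutants. Mutant 1 had 5049 FPKM over 11 meningeal fibroblast markers, against 1980 to 2789 FPKM in controls and 2653 and 3057 FPKM in the other mutants, and control 2 had 12727 FPKM over red blood cell markers, against 2851 to 4318 FPKM in the other controls. Mature OL markers (13 genes) summed to 63038 to 70830 FPKM in controls and to 46636, 59765 and 49232 FPKM in mutants 1 to 3, so that mutant 2 lay nearest to the controls. Of these 13 markers, 11 had lower mutant means, where 39.9% of all genes tested did. At an adjusted p under 0.05 by limma-trend 2, Mag and Cnp, fell, where 1.36% of all genes were called lower.

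Across the 10 genes, most mean levels were lower in mutants, and the test over all genes called a single one, Gsn. With the replicate number as a block, none of the 10 was called (Gsn adjusted p = 0.0691 by limma-trend). The mutant mean was lower for 9 of 10 genes, where 39.9% of all genes tested had a lower and 60.1% a higher mutant mean, and Capg was the exception. Mutant means of the 9 genes ranged from 73.9% (Gsn) to 95.6% (Cfl2) of the control mean, and that of Capg was 120% of it. At an adjusted p under 0.05, 1 of the 10 genes was called, against 2.62% of all genes in either direction (175 or 1.26% higher and 188 or 1.36% lower). The split of all calls depended on scaling, with 117 higher and 283 lower when samples were centred on their medians, 141 and 281 after quantile normalization and 103 and 267 on the deposited normalized counts, while Gsn was lower in each. With the replicate number as a block it went the other way, with 890 higher and 269 lower. At an unadjusted p under 0.05, 5 of 10 genes were lower (Gsn, Cfl1, Dstn, Pfn1 and Pfn2), against 8.5% of all genes. The median log2 fold change was -0.17 over the 10 genes and 0.05 over all genes tested. Because the 10 genes were chosen with earlier results of these data known, their counts beside the shares of all genes are a description. The choice itself may account for an excess.

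In 3 of the 10 genes, Gsn, Cfl1 and Pfn2, every mutant sample lay below every control sample, which held for 8.26% of all genes. Without mutant 2, this held for 7 of 10 genes (Dstn, Tmsb4x, Twf1 and Ermn in addition), against 12.1% of all genes. Without mutant 1 it held for 4 of 10 (Pfn1 in addition), against 12.2%, and without control 2 it held for the same 3 genes, against 10% of all genes. The samples to leave out were chosen after the data were seen. Mutant 2 was the highest mutant for 6 of the 10 genes, among them Dstn, Tmsb4x, Twf1 and Ermn. The choice of this sample may itself account for the count of 7. In bulk tissue, fewer cells of a type and less RNA per cell cannot be told apart.

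**Figure D1:**
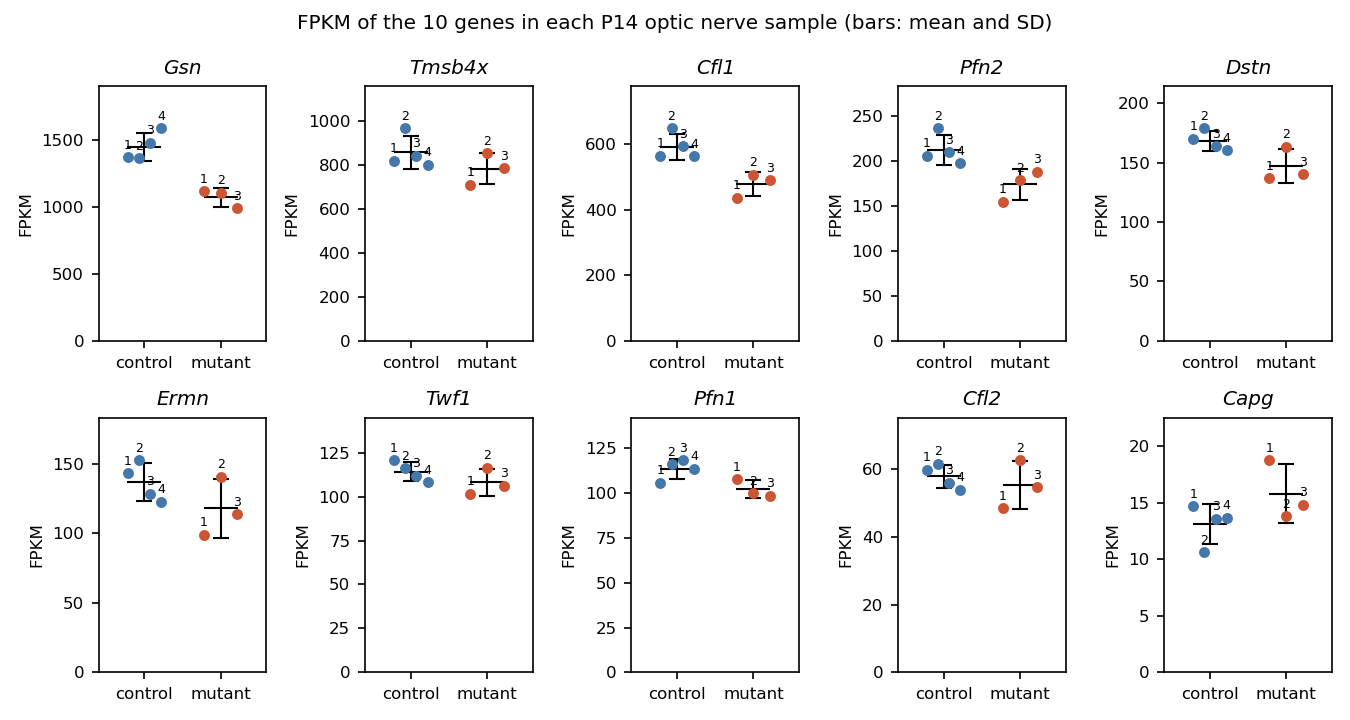
FPKM of each gene in the 4 control and 3 mutant samples, with the replicate number above each point and the group mean and SD as bars (each axis starts at 0). The points of mutants and controls are apart for Gsn, Cfl1 and Pfn2 and overlap for the other 7 genes.

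Gsn encodes gelsolin, which cuts filaments in a calcium-dependent way and caps the new end. It was the most abundant of the 10 genes. Control samples 1 to 4 had 1371, 1366, 1479 and 1586 FPKM. Mutant samples 1 to 3 had 1119, 1106 and 990.4 FPKM. All 3 mutants were below all 4 controls, with control 4 the highest sample and mutant 3 the lowest. Means were 1450 ± 104 FPKM (SD, n = 4) in controls and 1072 ± 70.8 FPKM (SD, n = 3) in mutants, or 73.9% of control. The log2 fold change was -0.44 (SE 0.0891, 95% interval -0.64 to -0.23), and the adjusted p was 0.0437 by limma-trend. Gsn was thus just inside the threshold. With the replicate number as a block, which takes control 4 out of the difference, the log2 fold change was -0.39 and the adjusted p 0.0691. The log2 fold change was also -0.39 without control 4 and with no block. With sex as a term the adjusted p was 0.0726. With 1 sample left out at a time, the log2 fold change ranged from -0.47 to -0.38 and Gsn was called in 1 of 7 fits (without mutant 2, adjusted p = 0.0419), the adjusted p of the others reaching 0.143.

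**Figure D2:**
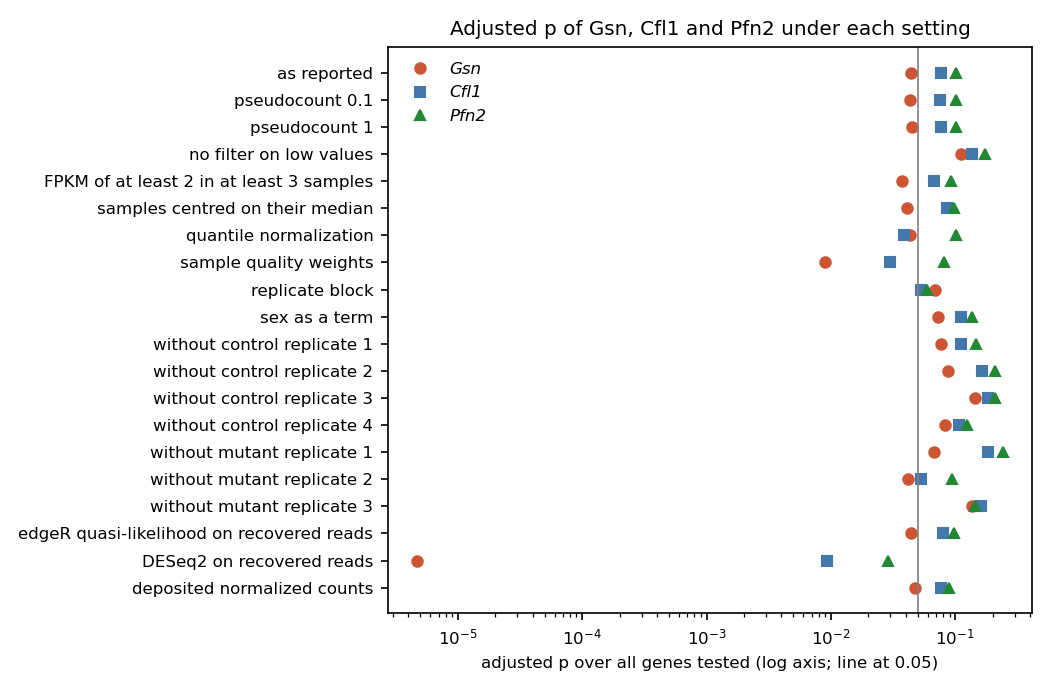
Adjusted p (log axis) of Gsn, Cfl1 and Pfn2 over all genes tested, under the reported test and 19 other settings, with a line at 0.05. Gsn lies close to the line in most settings, and Cfl1 and Pfn2 lie to its right in all but a few.

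Gsn lies on the plus strand at chr2:35279663-35307892 of GRCm38 in the deposited annotation, and GENCODE places its first exon farther upstream, at 35256380, with 7 transcripts. RefSeq gives 3 start sites, of which starts 1 and 2 lie upstream of the deposited span. One value for the gene does not tell their use apart. The 250 bases before each start site are shown for Gsn and for Cfl1 and Pfn2, since these are the genes whose groups did not overlap (RefSeq, GRCm38.p6). Capitals mark GGGCGG or its reverse complement, a motif bound by Sp1-type factors.
Gsn start 1, plus strand, chr2:35256109-35256358: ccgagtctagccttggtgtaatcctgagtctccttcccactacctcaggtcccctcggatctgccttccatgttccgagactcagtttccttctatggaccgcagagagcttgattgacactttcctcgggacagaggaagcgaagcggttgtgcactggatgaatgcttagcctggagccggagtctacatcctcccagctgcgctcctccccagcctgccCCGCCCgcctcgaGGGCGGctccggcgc
Gsn start 2, plus strand, chr2:35266494-35266743: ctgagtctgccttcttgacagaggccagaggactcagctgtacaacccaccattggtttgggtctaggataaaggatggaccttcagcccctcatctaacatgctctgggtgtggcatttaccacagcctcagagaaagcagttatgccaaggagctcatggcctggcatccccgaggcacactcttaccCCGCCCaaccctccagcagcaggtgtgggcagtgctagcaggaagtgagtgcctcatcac
Gsn start 3, plus strand, chr2:35282130-35282379: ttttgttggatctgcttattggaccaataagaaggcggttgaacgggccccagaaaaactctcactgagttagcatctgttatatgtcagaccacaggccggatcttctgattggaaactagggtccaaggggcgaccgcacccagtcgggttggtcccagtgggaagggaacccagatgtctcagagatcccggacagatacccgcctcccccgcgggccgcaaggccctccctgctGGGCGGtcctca
Cfl1, plus strand, chr19:5490205-5490454: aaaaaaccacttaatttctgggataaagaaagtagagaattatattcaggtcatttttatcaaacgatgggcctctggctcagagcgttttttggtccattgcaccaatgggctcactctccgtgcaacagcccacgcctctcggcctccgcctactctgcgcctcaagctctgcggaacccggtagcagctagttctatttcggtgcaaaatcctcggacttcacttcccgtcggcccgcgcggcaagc
Pfn2, minus strand, chr3:57847758-57848007: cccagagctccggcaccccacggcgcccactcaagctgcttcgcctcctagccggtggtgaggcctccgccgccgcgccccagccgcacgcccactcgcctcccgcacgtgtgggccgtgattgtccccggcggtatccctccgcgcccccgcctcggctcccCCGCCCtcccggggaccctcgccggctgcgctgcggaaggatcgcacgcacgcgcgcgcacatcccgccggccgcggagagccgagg

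The motif was searched on both strands with 3 others, TATAAA, the SOX motif ACAAAG and the CArG box of serum response factor, a regulator of actin genes. GGGCGG was present in all 3 Gsn windows (at -28 and -15, at -60 and at -12 from the start sites) and in that of Pfn2 (at -87), not in that of Cfl1, and in 32.7% of 32851 RefSeq promoter windows of the same length. It also stood in the windows of Dstn, Pfn1, Tmsb4x, Twf1 and Cfl2, whose groups overlapped. Cfl2 had 5 sites, more than Gsn or Pfn2 in any window. Capg and Ermn had none. None of the other motifs was found in the windows of the 10 genes, where the CArG box stood in 1.47%, TATAAA in 12.4% and ACAAAG in 16.5% of all windows. No motif overlapped another kind in these windows. A match of letters is a description of the window and was not tested for use in these nerves.

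Capg, the other gelsolin family gene among the 10 (chr6:72544391-72562983, plus strand), encodes a protein that caps filaments without cutting them and is best known from macrophages. It had the lowest level of the 10 genes. Controls 1 to 4 had 14.66, 10.61, 13.58 and 13.66 FPKM. Mutants 1 to 3 had 18.76, 13.8 and 14.8 FPKM. Mutant 1 was the highest of all samples, and mutant 2 lay within the control range. The log2 fold change was 0.25 (SE 0.133, 95% interval -0.05 to 0.56, adjusted p = 0.271 by limma-trend), so a difference was not shown. Without mutant 1 it was 0.13, and without control 2 it was 0.16. Summed meningeal fibroblast markers (11 genes, none called) had 2789, 1980, 2383 and 2391 FPKM in controls 1 to 4 and 5049, 2653 and 3057 FPKM in mutants 1 to 3, which placed the 7 samples in the same order as Capg did. By contrast, summed microglia and macrophage markers (12 genes) had 326 to 401 FPKM in controls and 378 to 419 FPKM in mutants, with none of them called, in another order of samples. The part of both cell types in the Capg value was not tested. The log2 ratio of Capg to Gsn was -6.74 ± 0.186 in controls and -6.05 ± 0.208 in mutants (SD, n = 4 and n = 3, difference 0.69), higher in every mutant, with p = 0.0571 by a two-sided exact permutation test, the smallest that 35 arrangements allow, and 0.114 adjusted over 6 ratios.

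Cofilin 1, its muscle-enriched relative cofilin 2 and destrin (actin depolymerizing factor) are the 3 members of a family that severs aged filaments and frees monomers from their ends. Cfl1 (chr19:5490485-5494029, plus strand) had 564.5, 646.8, 593.7 and 561.6 FPKM in controls 1 to 4. In mutants 1 to 3 it had 435.9, 506.5 and 489.7 FPKM. The groups were apart, with control 2 highest and mutant 1 lowest. Means were 591.6 ± 39.5 FPKM (SD, n = 4) and 477.4 ± 36.9 FPKM (SD, n = 3), 80.7% of control. The log2 fold change was -0.31 (SE 0.0818, 95% interval -0.50 to -0.12), and the adjusted p of 0.0763 missed the threshold (0.0530 with the replicate number as a block). Apart from leaving samples out there were 12 other ways of testing, of which the block did not draw on control 4. Of these 12, 3 put Cfl1 past the threshold: quantile normalization (adjusted p = 0.0389), sample quality weights (0.0301) and DESeq2 (0.00927). Of the 31-base words of Cfl1 transcripts, 13.2% also occur in transcripts of other genes, most of them in Gm6180 (9.91%), so a part of its reads could have been split with copies. Cfl1, Cfl2, Twf1 and Ermn also overlap a gene on the other strand (Snx32, 1700081N11Rik, Irak4 and Galnt5), and whether strand was used in counting is not given in the sources used here.

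Dstn (chr2:143915320-143943324, plus strand) had 170, 178.7, 163.9 and 160.2 FPKM in controls 1 to 4. Mutants 1 to 3 had 136.9, 163.5 and 140.5 FPKM. Mutant 2 lay within the control range and the other mutants below it. The mutant mean was 87.4% of control, with a log2 fold change of -0.20 (SE 0.0762, 95% interval -0.37 to -0.02, adjusted p = 0.160 by limma-trend). Cfl2 (chr12:54858817-54862877, minus strand) had 59.92, 61.72, 56.08 and 54.02 FPKM in controls and 48.58, 62.81 and 54.69 FPKM in mutants. Its highest and its lowest sample were both mutants. The log2 fold change was -0.07 (95% interval -0.28 to 0.14, adjusted p = 0.667), and without mutant 1 it was 0.02.

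Within the family total, the mean share of Cfl1 was lower and that of Cfl2 higher in mutants, and these shares were not tested by themselves. Cfl1 made up 72.3 ± 0.885% of the summed FPKM of the family in controls and 70.3 ± 1.2% in mutants (SD, n = 4 and n = 3). Cfl2 made up 7.09 ± 0.304% and 8.12 ± 0.395%, and Dstn 20.6 ± 0.594% and 21.6 ± 0.967%. The log2 ratio of Cfl2 to Cfl1 was higher in every mutant, at -3.15, -3.00 and -3.15, than in every control, at -3.23, -3.38, -3.39 and -3.37. The difference was 0.24 (exact permutation p = 0.0571, adjusted 0.114), which did not pass the threshold and could not have. Mutant 2, with the highest ratio, was also the library with skeletal muscle transcripts, and without it the difference was 0.19. The part of muscle RNA in the Cfl2 values was not tested. The log2 ratio of Dstn to Cfl1 differed by 0.11, with overlapping groups (exact permutation p = 0.114, adjusted 0.171).

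**Figure D3:**
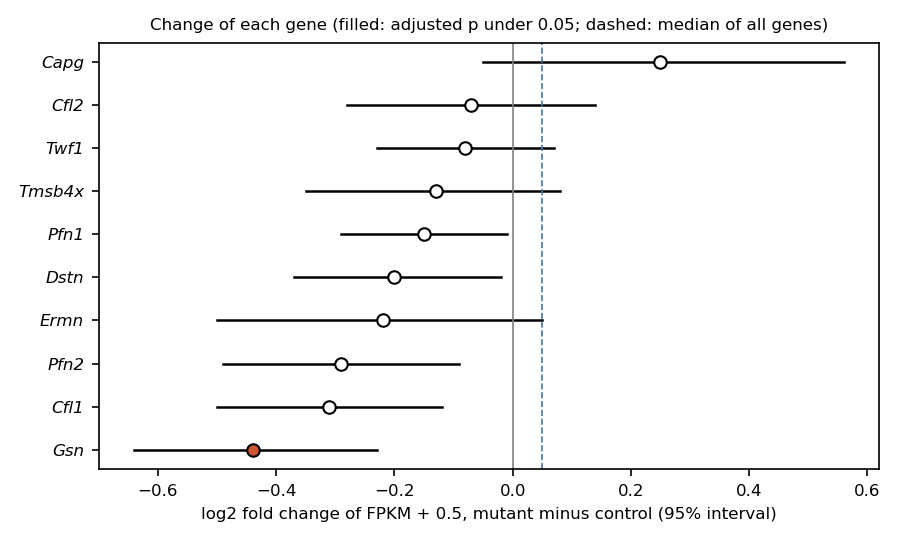
Log2 fold change of FPKM + 0.5 (mutant minus control) of each gene with its 95% interval from limma-trend. The filled point, Gsn, passed an adjusted p of 0.05, the grey line is 0 and the dashed line is the median of all genes tested, 0.05. The intervals of Gsn, Cfl1, Pfn2, Dstn and Pfn1 lie below 0.

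Profilins carry monomers to growing ends, thymosin beta 4 keeps monomers out of filaments, and twinfilin binds monomers and filament ends. Pfn2, the neural profilin (chr3:57841895-57848079, minus strand), had 206, 236.4, 209.9 and 197.8 FPKM in controls 1 to 4. Mutants 1 to 3 had 155, 179.1 and 188.4 FPKM. Every mutant was below every control, and control 2 was the highest sample and mutant 1 the lowest. Means were 212.5 ± 16.7 FPKM (SD, n = 4) and 174.2 ± 17.2 FPKM (SD, n = 3), 82.0% of control, with a log2 fold change of -0.29 (SE 0.0874, 95% interval -0.49 to -0.09). The adjusted p was 0.101 by limma-trend and 0.0290 by DESeq2, the one of the 12 other ways that called it. The widely expressed Pfn1 (chr11:70651850-70654644, minus strand) had 105.9, 116.1, 118.5 and 113.7 FPKM in controls and 107.9, 99.97 and 98.6 FPKM in mutants. Mutant 1 lay above control 1, so the groups overlapped. The log2 fold change was -0.15 (SE 0.0626, 95% interval -0.29 to -0.01, adjusted p = 0.180), and sample quality weights gave an adjusted p of 0.0448. Pfn2 supplied 65.1 ± 1.7% of the summed profilin FPKM in controls and 62.9 ± 3.51% in mutants, and their log2 ratio differed by -0.14 with overlapping groups (exact permutation p = 0.4, adjusted 0.48).

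Tmsb4x, on the X chromosome (chrX:167207093-167209315, minus strand), was second in level. Controls 1 to 4 had 821.6, 967.4, 844.2 and 802 FPKM, and mutants 1 to 3 had 711.2, 854.5 and 788 FPKM. Mutant 2 was higher than controls 1, 3 and 4. The log2 fold change was -0.13 (95% interval -0.35 to 0.08, adjusted p = 0.427 by limma-trend). Twf1 (chr15:94577951-94589889, minus strand) had 120.8, 116, 111.8 and 108.2 FPKM in controls and 101.7, 116.4 and 106.2 FPKM in mutants, and mutant 2 again lay within the control range. Its log2 fold change was -0.08 (95% interval -0.23 to 0.07, adjusted p = 0.496). Of its 31-base words, 17.3% occur in transcripts of other genes, nearly all in Gm4887 (17.2%).

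Ermn encodes ermin, a filament-binding protein made by myelinating OLs. It lies at chr2:58045113-58052864 on the minus strand. Controls 1 to 4 had 143.6, 152.9, 128.7 and 123 FPKM. Mutants 1 to 3 had 99.16, 141 and 114.1 FPKM. Mutants 1 and 3 were below all controls, and mutant 2 was above controls 3 and 4. The mutant mean was 86.2% of control, with a log2 fold change of -0.22 (SE 0.122, 95% interval -0.50 to 0.05, adjusted p = 0.292 by limma-trend), so that no difference was shown. It was -0.11 without mutant 1 and -0.36 without mutant 2 (adjusted p = 0.655 and 0.0732).

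The order of levels in controls, per length, was Gsn, Tmsb4x, Cfl1, Pfn2, Dstn, Ermn, Twf1, Pfn1, Cfl2 and Capg. The control ranges of neighbours in this order were apart, with the exception of Twf1 (108.2 to 120.8 FPKM) and Pfn1 (105.9 to 118.5 FPKM), which overlapped. Gsn was above Tmsb4x in all 7 samples. The coefficient of variation over the 4 controls ranged from 4.76% for Twf1 to 13.3% for Capg.

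The samples took repeated places in the 10 genes. Control 2 was the highest control for 6 genes (Cfl1, Cfl2, Dstn, Pfn2, Tmsb4x and Ermn), and control 4 was the lowest control for 7. Mutant 1 was the lowest mutant for 7 genes, and mutant 2 the highest mutant for 6 (Cfl1, Cfl2, Dstn, Tmsb4x, Twf1 and Ermn). Gsn went against this, with control 4 highest and mutant 3 lowest. Mutant 2 was also the mutant with the highest level of mature OL markers and of skeletal muscle markers. The mean log2 level of the 13 mature OL markers, relative to the control mean, lay between -0.02 and 0.05 in controls, and was -0.35, -0.01 and -0.30 in mutants 1 to 3.

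**Figure D4:**
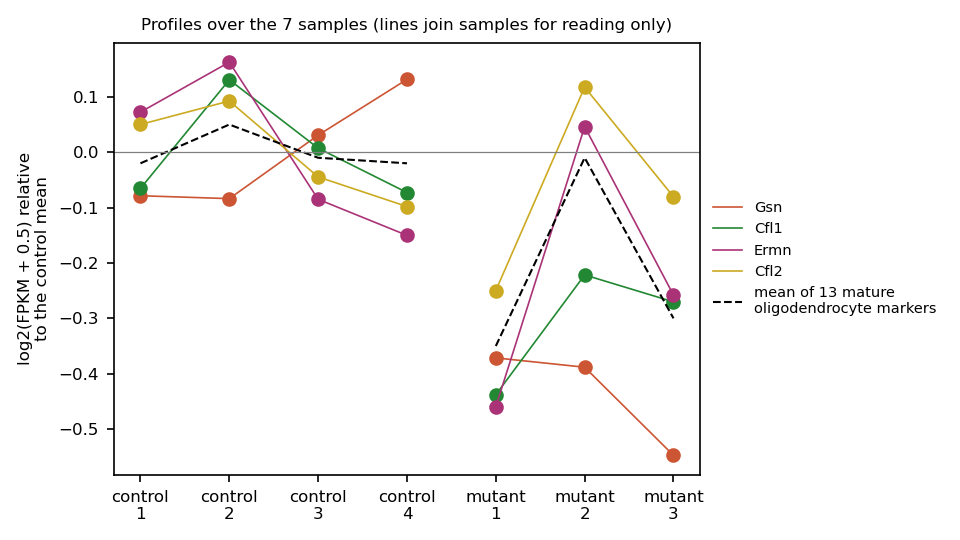
Log2(FPKM + 0.5) of Gsn, Cfl1, Ermn and Cfl2 in each sample relative to the gene's control mean, with the mean of 13 mature OL markers as a dashed line (lines join samples for reading only). In mutants, Ermn and Cfl2 were highest in mutant 2, as were the markers (-0.01), while Gsn was lowest in mutant 3.

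Each gene was therefore also set against these markers within the same sample, a difference that does not depend on how samples were scaled. It does depend on which markers are averaged, since their own log2 fold changes ranged from -0.49 (Mbp) to 0.29 (Ugt8a). Mag (-0.45) and Cnp (-0.46) were near Gsn (-0.44). Relative to the markers, Gsn differed by -0.22 on the log2 scale between mutants and controls, with overlapping groups (exact permutation p = 0.171, adjusted over 10 genes 0.429). Ermn differed by -0.01 (exact permutation p = 0.857). Cfl2 differed by 0.15 and was higher in every mutant (exact permutation p = 0.0571, adjusted 0.381), and Capg differed by 0.47 (exact permutation p = 0.114, adjusted 0.381). The remaining 6 genes differed by -0.09 (Cfl1) to 0.14 (Twf1), and none of the 10 passed after adjustment. The design could not reach 0.05 with any gene.

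Genes of like profile were looked up for Gsn and Ermn. Over the 7 samples, with each gene's log2(FPKM + 0.5) taken relative to its control mean, the 5 genes most like Gsn of 7062 with a mean of at least 10 FPKM were Snx15 (root mean square difference 0.0303), Mag (0.0373), Ssh3 (0.0516), Mrps7 (0.053) and Hip1r (0.058). Mag, a myelin adhesion protein, had 2363 to 2674 FPKM in controls and 1747 to 1941 FPKM in mutants. The genes most like Ermn were Grb14 (0.0458), Ptp4a1 (0.0467), Rab39b (0.0477), Fam96a (0.0521) and Mog (0.0563), a protein of the outer myelin surface, which had 1341 to 1501 FPKM in controls and 1053, 1424 and 1151 FPKM in mutants 1 to 3. In both lists a likeness of profile over 7 samples is a description.

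The cytoplasmic actins, on which these factors act, were among the most abundant genes of the lists. Actb, cytoplasmic beta-actin, had 1161, 1190, 1248 and 1185 FPKM in controls and 999.6, 982.5 and 1027 FPKM in mutants. All mutants lay below all controls, with a log2 fold change of -0.25 (SE 0.0698, adjusted p = 0.0837 by limma-trend). Quantile normalization (0.0266), sample quality weights (0.0311) and DESeq2 (7.15e-05) put its adjusted p past the threshold. Actg1, cytoplasmic gamma-actin, had 891.1 to 963 FPKM in controls and 801.3 to 876.6 FPKM in mutants (log2 fold change -0.13, adjusted p = 0.300), again with no overlap between the groups. Both share much sequence with other genes, with 23.5% of the 31-base words of Actb and 40.2% of those of Actg1 found elsewhere. Against the sum of both actins, the log2 ratio of Gsn was -0.55 ± 0.116 in controls and -0.79 ± 0.134 in mutants (SD, n = 4 and n = 3). It was lower in every mutant, by 0.24 (exact permutation p = 0.0571, adjusted 0.114). That of Ermn differed by -0.03, with overlapping groups (exact permutation p = 1).

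Over 7 lists of actin genes and their regulators, 82 gene entries were tested and 3 (3.66%) were called, against 2.62% of all genes. Mical3 was entered under more than one gene identifier. All 3, Gsn, Coro2b and Ssh3, were lower. With the replicate number as a block 4 were called, of which Coro2b and Ssh3 were lower, and Ezr and Tmod3 higher, with Gsn lost. Over all genes tested, 39.9% had a lower and 60.1% a higher mutant mean, the shares to set beside each list. Of 30 tested entries for severing and cofilin regulation, 19 had lower and 11 higher mutant means (median log2 fold change -0.06), and 2 passed, both lower. Both entries of Mical3 were among the lower ones. Coro2b, a coronin, a family that works with cofilin on filaments, had 163.9, 174.1, 176.3 and 168.9 FPKM in controls and 123.3, 133.6 and 127.7 FPKM in mutants. All mutants were far below all controls, and Coro2b fell to 75.1% of the control mean (log2 fold change -0.41, SE 0.0570, adjusted p = 0.0199 by limma-trend). Ssh3, of the slingshot family of phosphatases that switch cofilin on, had 21.13, 20.54, 22.52 and 24.32 FPKM in controls and 16.45, 16.03 and 16.19 FPKM in mutants. The mutants were nearly equal, and Ssh3 fell to 73.3% of the control mean (log2 fold change -0.43, SE 0.0728, adjusted p = 0.0274). With the replicate number as a block, the adjusted p was 0.0254 for Coro2b and 0.0330 for Ssh3. With 1 sample left out at a time, Coro2b passed in 4 of 7 fits (adjusted p from 0.0227 to 0.0916) and Ssh3 in 2 of 7 (0.038 to 0.109).

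Of 5 tested genes of the gelsolin superfamily, Gsn fell and the other 4 had higher mutant means and did not pass (median log2 fold change 0.25). Of 17 monomer-binding genes, 11 had lower and 6 higher means (median -0.09), and of the 4 actin genes, 2 were lower and 2 higher (median -0.02). Filament end capping genes (16 tested, 5 lower, 11 higher, median 0.16), tropomyosins (4 tested, 1 lower, 3 higher, median 0.18) and ermin with the ERM proteins that tie filaments to the membrane (6 tested, 3 lower, 3 higher, median 0.04) held no call without the block. With it, Ezr (ezrin, one of the ERM proteins) had a log2 fold change of 0.52 (adjusted p = 0.0292, against 0.43 and 0.0892 without) and Tmod3, a tropomodulin that caps filament ends, had 0.41 (adjusted p = 0.0333, against 0.38 and 0.135 without). Both were named after their values were seen. The most abundant genes of these 3 lists were Add1, which had a log2 fold change of -0.25 (adjusted p = 0.0628), Tpm3, with -0.03 (adjusted p = 0.768), and Ermn.

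**Figure D5:**
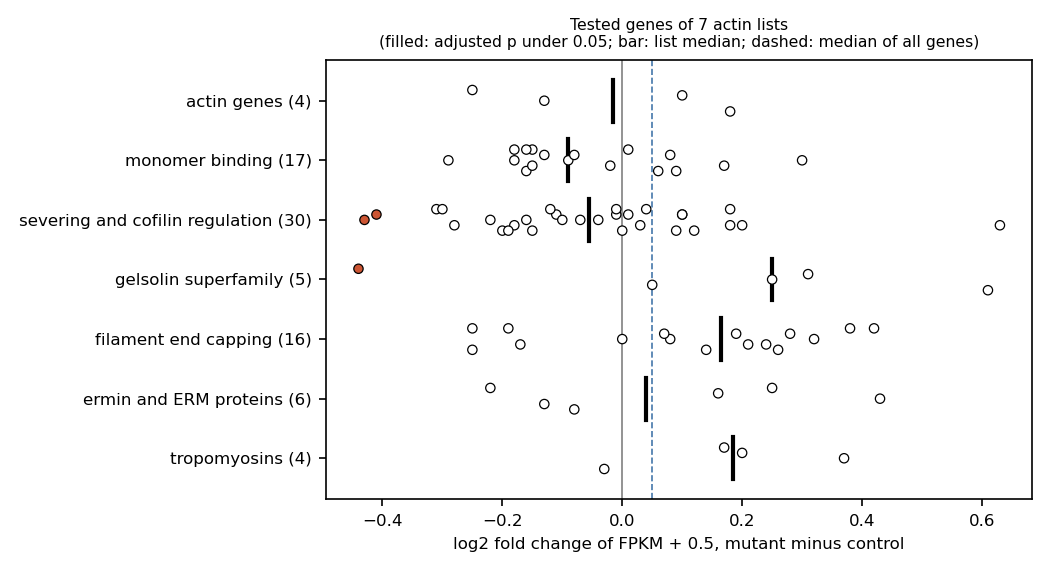
Log2 fold change of FPKM + 0.5 (mutant minus control) of the tested genes of 7 actin lists, with the number tested in brackets, list medians as bars, 0 as a grey line and the median of all genes, 0.05, as a dashed line. The filled points are Coro2b, Ssh3 and Gsn and lie to the left of 0.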

How the data were processed

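Poly(A) RNA of P14 optic nerves was sequenced from stranded libraries. The authors aligned reads with STAR (2.5.1b) to GRCm38 and estimated gene levels with RSEM (1.2.22), per the labels and the study's methods. They deposited FPKM values and normalized counts (a signal per gene, the RSEM estimate divided by a size factor whose method is not given in the sources used here), besides columns of their own comparison (fold change, p and FDR), which were not used. The deposited normalized counts lay on steps of 0.01 read, and 71.6 to 77.9% of low values were whole reads within a tolerance. The tolerance was 0.005 read, and 0.005 of the value for values above a single read. Rounded reads served edgeR and DESeq2 as alternatives, since a count test was not the main one. Depth was 27452222 to 43462575 recovered reads a sample.

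Samples were grouped by their labels. The test was limma-trend (limma 3.58.1, R 4.3.3) on log2(FPKM + 0.5), which understates changes of low genes, with genotype as the only term, over 13866 genes with at least 0.5 FPKM in at least 3 samples, with Benjamini-Hochberg adjustment over all of them and a threshold of 0.05. Ratios were tested by exact permutation (35 arrangements, two-sided). Scripts were tested on simulated data. Alternatives were 2 pseudocounts, 2 filters, 2 scalings, sample quality weights, a replicate block, each sample left out, edgeR 4.0.16, DESeq2 1.42.0 and the normalized counts. Sex as a term, and the overlap counts without mutant 1, mutant 2 or control 2, were chosen after seeing the data. Deviations from group means of same-numbered samples correlated at 0.168, 0.409 and 0.270, and those of different numbers at -0.353 to 0.205. The numbers were therefore used as a block, though these values do not establish a pairing. Deviations cancel out within a group, so a high value for one pair lowers others. Control 4 with mutant 1 (0.205) also exceeded control 1 with mutant 1 (0.168). Same-numbered samples shared their sex. The labels do not say what a number marks.

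The named genes were the 10 members, Fasn, Actb, Actg1, every gene of the 7 actin lists past the threshold, the most abundant gene of each list, and the 5 genes most like Gsn and most like Ermn. The members and lists were chosen with earlier results of these data known.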

Additional observations from a re-analysis of the deposited data

Results flagged for a closer look

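Of 45 groups of 4 control samples examined for a value far from the others, 4 held one, and chance alone flags about 1 in 20 groups. The ratio of Cfl2 to Cfl1 was highest among controls in control 1, with a log2 value of -3.23 against -3.38, -3.39 and -3.37 in controls 2 to 4, and it was still below the values of the 3 mutants. Add1, an adducin that caps filament ends, was lowest in control 2, at 320.1 FPKM against 348.6 to 349.7 FPKM in the other controls. Summed microglia and macrophage markers were highest in control 4, at 401 FPKM against 326 to 337 FPKM. Summed red blood cell markers were highest in control 2, at 12727 FPKM against 2851 to 4318 FPKM. Control 2 was also the highest control for 6 of the 10 actin genes, and the part of blood in these values was not tested.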

How the results depend on the processing

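Over 19 alternatives, the 10 genes gave 190 log2 fold changes, of which 175 kept their direction and side of the threshold, 9 lost the call (all Gsn), 5 gained one (Cfl1 under 3, Pfn1 and Pfn2 under 1 each) and 1 reversed (Cfl2, 0.02 without mutant 1 and down to -0.17 without mutant 2). The count of called members, 1 as reported, was 0 without a filter, 0 with the replicate block, 0 with sex as a term, 2 after quantile normalization, 3 with sample quality weights and 3 with DESeq2; it ranged from 0 to 1 with 1 sample left out. The count over all genes, 363, was 95 without a filter, 1525 with weights, 1159 with the replicate block (890 higher, 269 lower), 203 with sex as a term and 1682 with DESeq2, and 60, 15, 6 and 117 without controls 1 to 4 and 186, 907 and 6 without mutants 1 to 3. The count over the actin lists, 3, was 1 without a filter, 5 after quantile normalization, 11 with weights and 16 with DESeq2, 4 with the replicate block (2 of them higher) and 0 to 6 with 1 sample left out. In the block fit, which control 4 did not enter, the call of Gsn was lost and those of Fasn, Coro2b and Ssh3 were kept. Leaving out control 4 without a block also lost Gsn (adjusted p = 0.0826 by limma-trend) and Ssh3 (0.0564). It kept Coro2b (0.0422) and Fasn (0.0103). Without a filter more genes were tested; the cause of the other differences was not tested. With 1 sample left out, the difference in the log2 ratio of Ermn to actin ranged from -0.19 to 0.10 (0.01, 0.02, 0.10 and 0.01 where it reversed), and relative to mature OL markers Pfn1 ranged from -0.04 (without mutant 1) to 0.18, Pfn2 from -0.17 to 0.01 (without mutant 2) and Ermn from -0.05 to 0.05 (0.02, 0.03 and 0.05 where it reversed). Other ratios kept their sign. With 3 mutants, p by exact permutation could not go below 0.0571.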

Other observations

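Of the markers of other cells of the nerve, only the astrocyte list held called genes. Astrocyte markers had higher mutant means in 10 of 10 genes, where 60.1% of all genes tested had a higher mean, and 4 rose, where 1.26% of all genes were called higher: Aldh1l1, Slc1a2, Gja1 and Aldoc. Aldoc, a glycolytic enzyme of astrocytes, had 314 to 347 FPKM in controls and 455 to 574 FPKM in mutants (log2 fold change 0.63, adjusted p = 0.0199 by limma-trend). Gja1, the astrocyte gap junction protein connexin 43, had 203 to 257 FPKM in controls and 336 to 385 FPKM in mutants (log2 fold change 0.64, adjusted p = 0.0214). Of 9 endothelial markers, 9 had higher mutant means and none passed, and of 11 meningeal fibroblast markers, 11 had higher means and none passed, beside the same 60.1% of all genes.

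Some markers of earlier OL stages fell. OL progenitor (OPC) markers summed to 431 to 468 FPKM in controls and 322 to 388 FPKM in mutants, and 2 of 8 fell, Cspg4 and Gpr17, where 1.36% of all genes were called lower. Gpr17 alone had 212 to 276 FPKM in controls and 151 to 180 FPKM in mutants, and without it the other 7 markers summed to 192 to 220 FPKM in controls and 172 to 208 FPKM in mutants, with overlapping groups. Pdgfra, the receptor that defines OPCs, had a log2 fold change of -0.14 (adjusted p = 0.537), and Ptprz1 and Cspg5 had 0.08 and 0.05 (adjusted p = 0.736 and 0.728). Markers of newly formed OLs summed to 1423 to 1606 FPKM in controls and 998 to 1223 FPKM in mutants, and 3 of 10 fell, Tmem2, Rras2 and Gpr17, the receptor that is in both lists, while Bmp4 had a log2 fold change of 0.16 (adjusted p = 0.508). Gpr17, transient in differentiating OLs, had a log2 fold change of -0.55 (adjusted p = 0.0327).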
